A study of Homo sapiens with 17 samples.

Results

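The genes described here are 34 genes of cholesterol synthesis and of its control by the sterol regulatory element-binding proteins (SREBPs), chosen by name. The list holds 18 enzymes that lead from acetyl-CoA to cholesterol, 6 genes of SREBP control, 6 genes of fatty acid synthesis and desaturation, and 4 genes of the liver X receptor (LXR) and cholesterol efflux. All 34 symbols were found among the 60664 genes of the table, and 33 of them reached the minimum mean of 10 normalized counts and were among the 15599 genes tested. The exception was ABCG1, a cholesterol exporter, which had 5 reads in a single library (AZD5153 48h replicate 2, 5.43 normalized counts) and none in the others.

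RNA-Seq was performed on SF8628 cells, a patient-derived line of H3K27-altered diffuse midline glioma (DMG; the labels call it DIPG) grown as a monolayer in medium with fetal bovine serum. AZD5153 is an inhibitor of the BET bromodomain proteins, which bind acetylated histones at active genes. The 4 groups were DMSO 24h and DMSO 48h (vehicle) and AZD5153 24h and AZD5153 48h (1 µM), each with 3 libraries. The comparison asks what BET bromodomain inhibition does to gene expression, in a single cell line at a single dose. Nothing in the labels says that the libraries came from separate cultures, so the p-values measure the spread between these libraries, which may be technical.

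Cells build cholesterol from acetyl-CoA through mevalonate, the isoprenoid diphosphates, squalene and lanosterol. When membrane sterol is low, SCAP carries the SREBPs from the endoplasmic reticulum to the Golgi apparatus, where they are cut, and the freed parts enter the nucleus and activate genes of sterol and fatty acid synthesis. When sterol is plentiful, the INSIG proteins hold SCAP back, and oxidized sterols activate LXR, which induces genes of cholesterol export.

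The libraries held between 15759148 and 27335220 reads on genes (median 20737337), and values are given as normalized counts, the reads divided by 1 scaling factor per library. DMSO 24h replicate 1 stood apart from its group. Its median absolute difference from the mean of the other libraries of its group was 0.21 on the log2 scale over the tested members. Over all tested genes it was 0.22. DMSO 24h replicate 3 came next, at 0.14 and 0.18. For several genes the 24-hour result is also given without DMSO 24h replicate 1. Of 12 markers of glia and neural progenitors, 8 had a mean of at least 10 normalized counts, OLIG2 was at 0 in every library and PDGFRA and NCAM1 had means of 2.66 and 2.31, above that of SOX10. The summed level, mostly VIM (mean 18049) and CD44 (6404), was 32018 to 40641 at DMSO 24h, 27265 to 29218 at AZD5153 24h, 25811 to 26585 at DMSO 48h and 24017 to 25651 at AZD5153 48h. Markers of other cell types also moved with treatment. Of 5 myeloid markers CSF1R alone had a mean of at least 10 and AIF1 was at 0 throughout, and their sum, nearly all CSF1R, was 178 to 212 at DMSO 24h and 26.6 to 37.5 at AZD5153 24h. The sum of 4 endothelial markers was 331 to 385 at DMSO 24h and 68.5 to 92.5 at AZD5153 24h, with CDH5 at 0 throughout. At 48 hours the myeloid sum was 177 to 213 in DMSO and 29.1 to 48.9 in AZD5153. The endothelial sum at that time was 606 to 643 in DMSO and 59.0 to 75.7 in AZD5153. The sum of 4 epithelial markers was higher with AZD5153, 1028 to 1121 against 1195 to 1304 at 24 hours and 1263 to 1395 against 1602 to 1835 at 48 hours. Their part in the results was not tested. Hepatocyte and adipocyte markers, from cell types rich in these pathways, summed to at most 12.5 in any library. In bulk samples, fewer cells of a type and less RNA per cell cannot be told apart.

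A large share of these genes was lower in AZD5153-treated DMG cells, and a smaller set was higher. At 24 hours, 20 of the 33 tested members were lower in AZD5153-treated than in DMSO-treated cells and 6 were higher (limma, adjusted p under 0.05), that is 60.6% and 18.2% of the members, where 34.6% of all tested genes were lower and 33.9% were higher. The 48-hour comparison called 17 members lower and 8 higher (51.5% and 24.2%), beside 33.9% and 33.1% of all tested genes. The share that fell was thus above the background and the share that rose below it at both times. The members were chosen with earlier results of these data known, so this is a description and not a test of the set. Over the members, the median log2 fold change was -0.37 at 24 hours and -0.23 at 48 hours, and that of all tested genes was 0.00 at both. A fall of at least 1 on the log2 scale was measured for 12 members at 24 hours (36.4%) and 8 at 48 hours (24.2%), against 15.7% and 16.5% of all tested genes. Without DMSO 24h replicate 1, the counts were 20 lower and 6 higher at 24 hours and 19 lower and 8 higher at 48 hours, beside 5494 and 5309 and then 5608 and 5556 of all tested genes. With libraries scaled to equal totals, which moved the median of all genes by -0.12 at 24 hours and -0.17 at 48 hours, the 24-hour call was lower for 22 members and higher for 3, beside 6293 and 4340 of all tested genes. The 48-hour call was then lower for 22 members and higher for 4, beside 6511 and 3896 of all tested genes. Under quantile normalization 20 members were lower and 5 higher at 48 hours, beside 4853 and 5800 of all tested genes.

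The 2 times rest on different libraries, and 17 members were lower at both, beside 27.1% of all tested genes. These were ACAT2, HMGCS1, MVK, FDPS, FDFT1, MSMO1, HSD17B7, EBP, SREBF1, SREBF2, STARD4, ACACA, SCD, FADS1, FADS2, ABCA1 and NR1H3. Another 5 were higher at both, beside 26.0% of all tested genes, namely IDI1, LSS, TM7SF2, SCAP and MYLIP. INSIG1 alone was called in opposite directions, beside 1.62% of all tested genes. No call was made at either time for PMVK, MVD, SQLE, DHCR7 and INSIG2, beside 19.2% of all tested genes.

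**Figure D1:**
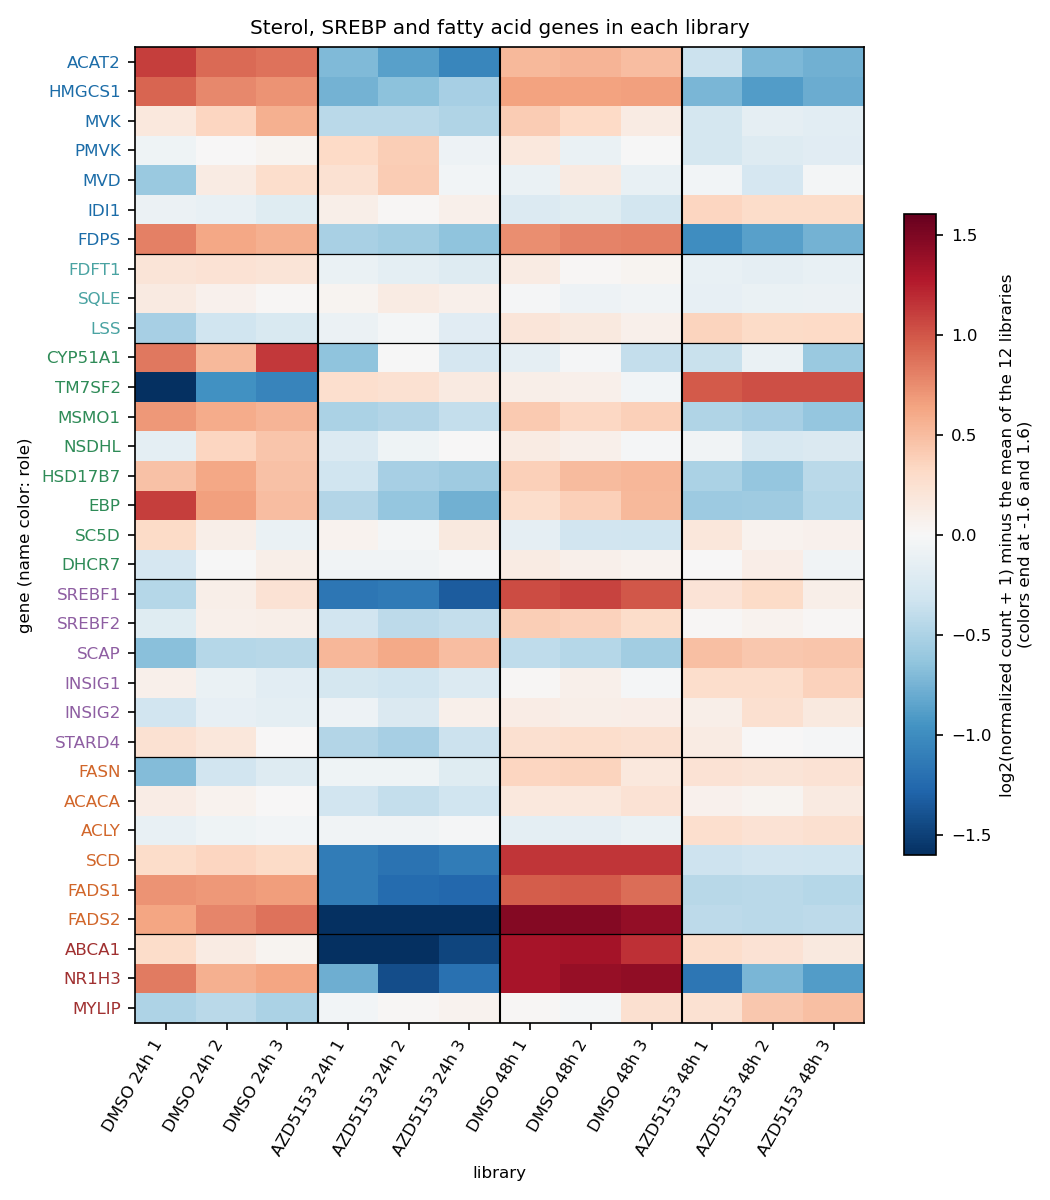
Level of each tested member (rows, grouped by role) in each of the 12 libraries (columns), as log2(normalized count + 1) minus the gene's mean over all libraries; red is above and blue below that mean, and the color bar gives the scale. FADS2 and ABCA1 are darkest blue at AZD5153 24h, and TM7SF2 and SCAP run the opposite way.

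**Figure D2:**
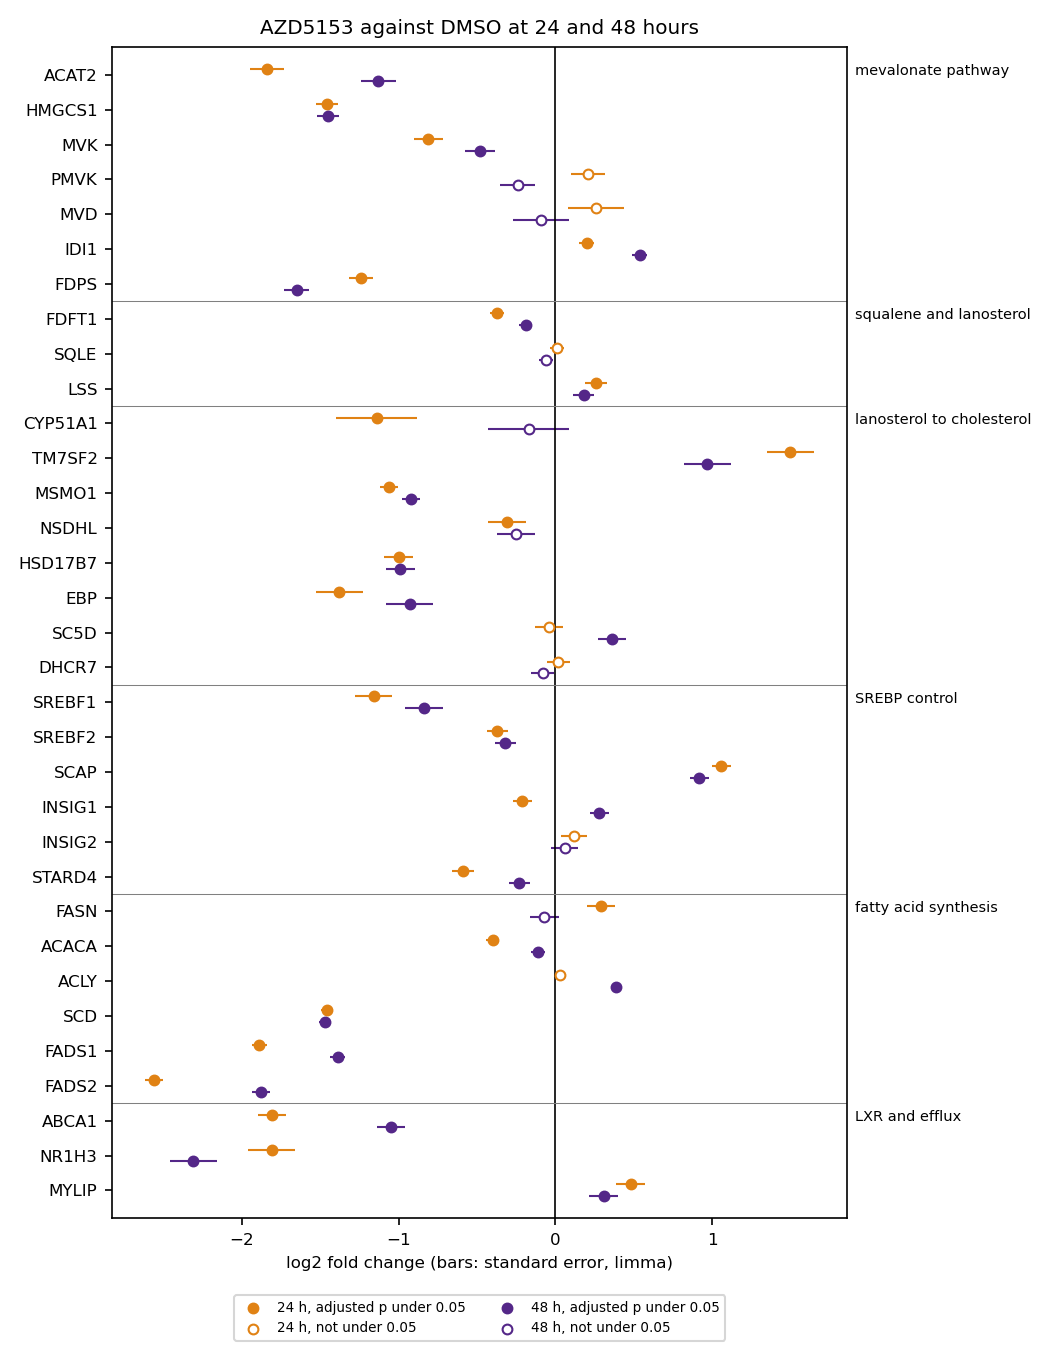
Log2 fold change of AZD5153 against DMSO for each tested member (rows, by role) at 24 hours (orange) and 48 hours (purple), with limma's standard error as bars and filled points for an adjusted p under 0.05. Most filled points lie left of 0, from FADS2 at -2.56 to ACACA at -0.11, and TM7SF2, SCAP, IDI1, LSS and MYLIP lie to the right at both times.

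Promoter sequence is shown for 7 members called at both times, 5 that fell at both times (SREBF2, SCD, HMGCS1, MSMO1 and HSD17B7) and 2 that rose (IDI1 and TM7SF2), since the members' shared promoter motifs are described from it. The sequences are from RefSeq (GRCh38.p14), 5′ to 3′ on the gene's strand, and each is the part of the 250 bases before the RefSeq start that lies upstream of the first exon base in GENCODE 44. Capitals mark matches on either strand to CCAAT (the letters bound by NF-Y), GGGCGG (the GC box) and TCACNCCAC (the sterol regulatory element), and no 2 matches overlap. CACGTG, the E-box, was searched as well.
SREBF2: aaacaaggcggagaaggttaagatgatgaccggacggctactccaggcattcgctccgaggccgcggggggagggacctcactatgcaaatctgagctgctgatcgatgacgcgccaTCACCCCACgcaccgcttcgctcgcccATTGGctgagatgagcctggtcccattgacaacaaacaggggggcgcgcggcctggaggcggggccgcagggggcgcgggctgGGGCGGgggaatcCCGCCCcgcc
SCD: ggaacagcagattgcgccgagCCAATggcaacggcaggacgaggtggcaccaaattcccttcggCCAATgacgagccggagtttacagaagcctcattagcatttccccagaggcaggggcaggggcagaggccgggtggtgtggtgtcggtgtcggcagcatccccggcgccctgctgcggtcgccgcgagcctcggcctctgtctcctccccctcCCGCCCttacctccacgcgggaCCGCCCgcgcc
HMGCS1: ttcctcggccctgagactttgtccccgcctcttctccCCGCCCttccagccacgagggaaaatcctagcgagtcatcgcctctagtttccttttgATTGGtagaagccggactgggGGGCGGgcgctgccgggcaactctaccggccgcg
MSMO1: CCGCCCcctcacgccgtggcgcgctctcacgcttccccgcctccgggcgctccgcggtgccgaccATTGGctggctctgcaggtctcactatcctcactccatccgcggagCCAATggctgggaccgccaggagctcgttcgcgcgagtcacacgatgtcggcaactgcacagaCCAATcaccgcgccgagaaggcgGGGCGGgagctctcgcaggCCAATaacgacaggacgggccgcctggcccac
HSD17B7: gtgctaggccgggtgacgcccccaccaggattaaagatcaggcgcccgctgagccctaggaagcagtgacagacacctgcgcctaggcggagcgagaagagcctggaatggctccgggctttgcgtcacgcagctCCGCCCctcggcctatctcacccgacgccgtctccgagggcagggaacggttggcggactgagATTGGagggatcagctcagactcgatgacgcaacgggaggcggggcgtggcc
IDI1: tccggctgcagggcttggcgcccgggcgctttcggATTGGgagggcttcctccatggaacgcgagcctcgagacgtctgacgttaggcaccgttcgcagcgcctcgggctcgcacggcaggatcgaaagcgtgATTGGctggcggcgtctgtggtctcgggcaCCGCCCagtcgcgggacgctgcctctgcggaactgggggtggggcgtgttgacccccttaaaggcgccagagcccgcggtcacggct
TM7SF2: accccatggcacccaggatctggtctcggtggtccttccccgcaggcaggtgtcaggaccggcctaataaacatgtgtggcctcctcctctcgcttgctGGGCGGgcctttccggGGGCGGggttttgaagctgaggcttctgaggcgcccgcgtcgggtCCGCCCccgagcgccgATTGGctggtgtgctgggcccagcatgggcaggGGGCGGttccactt

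These windows lie directly before the genes, at chr22:41832855-41833104 (plus strand) for SREBF2, chr10:100346983-100347232 (plus strand) for SCD, chr5:43313513-43313662 (minus strand) for HMGCS1, chr4:165327419-165327666 (plus strand) for MSMO1, chr1:162790452-162790701 (plus strand) for HSD17B7, chr10:1049120-1049369 (minus strand) for IDI1 and chr11:65111622-65111844 (plus strand) for TM7SF2. The sterol regulatory element letters of SREBF2 began 133 bases before the start, and the NF-Y box 106 bases before it. MSMO1 held 4 NF-Y boxes, the most of the printed windows, and TM7SF2 held 4 GC boxes. Over the whole 250 bases, 29 of the 34 members had a promoter entry. NF-Y box letters were in 21 of these 29 genes (72.4%), against 41.2% of the 11179 tested genes with an entry and 37% of all genes in the promoter table. GC box letters were in 28 of 29 (96.6%), against 73.7% of the tested genes and 46.2% of all. The letters did not separate the directions, since the NF-Y box was in 11 of 15 members that fell at both times and in 4 of 5 that rose at both. Sterol regulatory element letters were in the window of SREBF2 only (3.45% of the members, 1.2% of the tested genes, 1.09% of all), and E-box letters were in ABCA1, INSIG1, SC5D and SCAP (13.8%, 10.9% and 7.73%). A match is a description of letters and not a binding site, and no match says only that these letters are not in this window.

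Of the 7 enzymes of the mevalonate pathway, 4 fell at both times (ACAT2, HMGCS1, MVK and FDPS), IDI1 rose at both, and PMVK and MVD were not called at either, beside 27.1%, 26.0% and 19.2% of all tested genes. HMGCS1, the cytosolic synthase that joins acetyl-CoA to acetoacetyl-CoA ahead of mevalonate, had 3066, 2738 and 2657 normalized counts at DMSO 24h and 955, 1017 and 1111 at AZD5153 24h. At 48 hours HMGCS1 had 2520.3, 2505 and 2545 in DMSO and 973, 863 and 927 in AZD5153. Every AZD5153 library was thus below every DMSO library, by much the same step at both times. HMGCS1 fell 2.74-fold at 24 hours (log2 fold change -1.46, SE 0.07, limma adjusted p = 4.2e-11) and 2.74-fold at 48 hours (-1.45, SE 0.07). Another gene model, with a mean of 0 normalized counts, overlaps 37.7% of the exon bases of HMGCS1 on the opposite strand. Fold changes here and below are on the scale of log2(normalized count + 1).

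ACAT2, the cytosolic thiolase that makes acetoacetyl-CoA, had 1416, 1234 and 1203 normalized counts at DMSO 24h against 402, 358 and 317 at AZD5153 24h. At 48 hours the ACAT2 values were 937, 956 and 926 against 515, 398 and 385. The groups did not overlap at either time, and the gap was narrower at 48 hours, where the DMSO level was lower. ACAT2 fell 3.57-fold at 24 hours (-1.84, SE 0.11, limma adjusted p = 5.5e-10) and 2.19-fold at 48 hours (-1.13, SE 0.11, limma adjusted p = 1.9e-07). TCP1 overlaps 17.2% of the exon bases of ACAT2 on the opposite strand, and the strand setting of the counting is not given in the sources used here.

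FDPS, which makes farnesyl diphosphate, the branch point to sterols and to protein prenylation, showed the reverse order of the 2 times. FDPS values were 1366, 1206 and 1162 at DMSO 24h and 546, 530.4 and 503 at AZD5153 24h. The 48-hour values were 1313, 1354 and 1369 in DMSO and 393, 430.3 and 464 in AZD5153. FDPS fell 2.36-fold at 24 hours (-1.24, SE 0.079, limma adjusted p = 1.1e-09) and 3.14-fold at 48 hours (-1.65, SE 0.079, limma adjusted p = 3.6e-11), with no overlap at either time. RUSC1-AS1, with a mean of 179.6 normalized counts, overlaps 18.6% of the exon bases of FDPS on the opposite strand. MVK, the first kinase of mevalonate, spanned 852 to 1121 at DMSO 24h and 543 to 560.4 at AZD5153 24h, a change of -0.81 on the log2 scale that was -0.48 at 48 hours.

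IDI1, the isomerase that supplies dimethylallyl diphosphate, moved the other way from the 4 that fell. It had 3123, 3056 and 2914 normalized counts at DMSO 24h and 3565, 3373 and 3510.4 at AZD5153 24h, and 2869.8, 2909.6 and 2719.9 against 4222, 4085 and 4076 at 48 hours. All AZD5153 libraries lay above all DMSO libraries of their time. The rise was 1.15-fold at 24 hours (0.20, SE 0.048, limma adjusted p = 0.0016) and 1.46-fold at 48 hours (0.54, SE 0.048, limma adjusted p = 5.6e-08), although with libraries scaled to equal totals the 24-hour change was 0.08 and no longer called. PMVK and MVD, the next kinase and the decarboxylase, changed by 0.21 and 0.26 at 24 hours with overlapping groups. PMVK had 556, 589 and 604 normalized counts at DMSO 24h and 729, 769 and 551 at AZD5153 24h, where replicate 3 was below the DMSO range and the others above it. PMVK was called higher at 24 hours without AZD5153 24h replicate 3 (0.36) and under quantile normalization (0.28). Intervals of 95% were -0.02 to 0.45 for PMVK and -0.12 to 0.64 for MVD, and the MVD change was -0.01 without DMSO 24h replicate 1 but 0.43, and called, without DMSO 24h replicate 3. At 48 hours PMVK had 659, 543 and 582 in DMSO and 482, 506 and 515 in AZD5153, which did not overlap. Its change of -0.24 was not called (limma adjusted p = 0.062), but 7 alternatives called it lower (-0.41 to -0.24), among them edgeR, DESeq2 and equal totals.

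The 3 enzymes from farnesyl diphosphate to lanosterol moved little. FDFT1, squalene synthase, had 6235, 6327 and 6242 normalized counts at DMSO 24h and 5006, 4854 and 4661 at AZD5153 24h. The FDFT1 values at 48 hours were 5908, 5488 and 5556 in DMSO and 4961, 4895 and 4968 in AZD5153. The groups did not overlap, and FDFT1 fell at 24 hours (-0.37, SE 0.044, limma adjusted p = 1.7e-06) and by a smaller step at 48 hours (-0.19). SQLE, squalene epoxidase and a rate-limiting step of the later pathway, had 5354, 5098 and 4901 at DMSO 24h and 4984, 5317 and 5149 at AZD5153 24h, and these groups overlapped. Its log2 fold changes of 0.01 at 24 hours (95% interval -0.09 to 0.11) and -0.06 at 48 hours (-0.16 to 0.04) did not pass the test as deposited, while at equal totals they were -0.11 and -0.23 and passed. LSS, which closes the rings to form lanosterol, rose by 0.26 at 24 hours (SE 0.068, limma adjusted p = 0.0033) and 0.18 at 48 hours (SE 0.068, limma adjusted p = 0.025), and at equal totals neither rise was called. The 48-hour call of LSS was lost under 6 alternatives in all, and its 24-hour change was 0.17 without DMSO 24h replicate 1.

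Among the 8 enzymes that turn lanosterol into cholesterol, MSMO1, HSD17B7 and EBP fell at both times and TM7SF2 rose at both. Of all tested genes, 27.1% were lower and 26.0% higher at both times. MSMO1, an oxidase that removes methyl groups of the sterol ring, had 4177, 3909.8 and 3754 normalized counts at DMSO 24h and 1821, 1862 and 1989 at AZD5153 24h. MSMO1 then had 3462, 3254 and 3363 at DMSO 48h and 1846, 1788 and 1679 at AZD5153 48h. The groups were separate at both times, with AZD5153 2.09-fold lower at 24 hours (-1.06, SE 0.057, limma adjusted p = 1.5e-10) and 1.90-fold lower at 48 hours (-0.92, SE 0.057). HSD17B7, the keto-reductase that works with MSMO1, had 568 ± 33.0 normalized counts at DMSO 24h (SD, n = 3) against 285 ± 27.6 at AZD5153 24h, and 549 ± 30.4 at DMSO 48h against 275 ± 17.2 at AZD5153 48h. Either time gave a 1.99-fold fall. Its pseudogene HSD17B7P2 had a mean of 37.1 normalized counts, against 419 for the gene, and reads of such copies may be divided between them.

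EBP, a sterol isomerase, had 447, 327 and 292 normalized counts at DMSO 24h and 149, 134 and 121 at AZD5153 24h. At 48 hours EBP had 251, 270.4 and 297 in DMSO and 138, 139 and 151 in AZD5153. AZD5153 lowered EBP 2.59-fold at 24 hours (-1.38, SE 0.15, limma adjusted p = 4.7e-07; -1.20 without DMSO 24h replicate 1) and 1.91-fold at 48 hours (-0.93, SE 0.15). Another gene model covers 36.4% of the exon bases of EBP on the same strand.

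TM7SF2, a reductase of the sterol ring, was the member with the largest rise at 24 hours. It had 174, 309.6 and 291 normalized counts at DMSO 24h and 735, 721 and 673 at AZD5153 24h. The 48-hour values of TM7SF2 were 649, 640.1 and 587 in DMSO and 1197, 1239.7 and 1246 in AZD5153. All treated libraries were above all controls of their time, and the level also climbed between the times in both treatments. The increase was 2.83-fold at 24 hours (1.50, SE 0.15, limma adjusted p = 2.7e-07; 1.24 without DMSO 24h replicate 1) and 1.96-fold at 48 hours (0.97, SE 0.15, limma adjusted p = 3.2e-05).

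CYP51A1, lanosterol demethylase, had low values, 62.0, 49.1 and 75.8 at DMSO 24h, 21.5, 33.8 and 28.2 at AZD5153 24h, 30.6, 33.7 and 25.9 at DMSO 48h and 26.4, 31.5 and 22.2 at AZD5153 48h. Only DMSO 24h stood above the other groups. CYP51A1 changed by -1.14 at 24 hours (SE 0.26, limma adjusted p = 0.0012) and by -0.17 at 48 hours (95% interval -0.73 to 0.39). A second gene model on the same strand covers 68.2% of its exon bases in GENCODE 44, so reads there cannot be assigned to 1 gene by position, and the level of CYP51A1 is uncertain. NSDHL, a dehydrogenase of the same demethylation steps, was called at 24 hours (-0.31, SE 0.12, limma adjusted p = 0.04) with overlapping groups, and that call was lost under 10 alternatives. Without DMSO 24h replicate 1, NSDHL changed by -0.49. Its 48-hour change of -0.25 was not called, but 3 alternatives called it lower (-0.42 to -0.25). SC5D, a desaturase, had 2408, 2061 and 1803 normalized counts at DMSO 24h, 2014, 1892 and 2152 at AZD5153 24h, 1749, 1565 and 1560.2 at DMSO 48h and 2204, 2010.0 and 2035 at AZD5153 48h. The treated libraries lay within the DMSO range at 24 hours and above it at 48 hours. SC5D changed by -0.04 at 24 hours and rose by 0.36 at 48 hours (SE 0.088, limma adjusted p = 0.002), a rise that was 0.19 and not called at equal totals. DHCR7, a reductase of the last step, had log2 fold changes of 0.02 and -0.08, with 95% intervals of -0.14 to 0.18 and -0.23 to 0.08. At 48 hours DHCR7 was -0.25 and called lower both at equal totals and under quantile normalization.

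Both genes of the SREBPs fell, and the gene of their escort SCAP rose. SREBF1, whose product chiefly activates genes of fatty acid synthesis, had 1865, 2721 and 3003 normalized counts at DMSO 24h and 1149, 1172 and 1021 at AZD5153 24h. At 48 hours SREBF1 had 5287, 5423 and 5108 in DMSO and 2969, 3175 and 2723 in AZD5153. Treated libraries were lower than controls at each time, yet AZD5153 48h reached the range of DMSO 24h. The fall was 2.23-fold at 24 hours (-1.16, SE 0.12, limma adjusted p = 5.6e-07; -1.36 without DMSO 24h replicate 1) and 1.79-fold at 48 hours (-0.84, SE 0.12, limma adjusted p = 2e-05).

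SREBF2, whose product chiefly activates genes of cholesterol synthesis, fell less. It had 3317, 4037 and 4039 normalized counts at DMSO 24h and 3059.7, 2832 and 2906 at AZD5153 24h, then 5001, 4895 and 4652 at DMSO 48h and 3851, 3942 and 3850.3 at AZD5153 48h. The groups were separate at both times. SREBF2 was 1.29-fold lower at 24 hours (-0.37, SE 0.067, limma adjusted p = 0.00015) and 1.25-fold lower at 48 hours (-0.32, SE 0.067, limma adjusted p = 0.00051).

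SCAP, which senses sterol and escorts the SREBPs, had 2357, 2730.4 and 2762 normalized counts at DMSO 24h against 5415, 5698 and 5259 at AZD5153 24h. The later SCAP values were 2818, 2727 and 2558 in DMSO against 5227, 5059.9 and 5088 in AZD5153. The AZD5153 level was about 2.09 times the DMSO level at 24 hours (1.06, SE 0.061, limma adjusted p = 3.3e-10) and 1.90 times at 48 hours (0.92, SE 0.061, limma adjusted p = 1.8e-09). Neither treatment showed a called change of SCAP from 24 to 48 hours.

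INSIG1, which retains SCAP in the endoplasmic reticulum and is itself an SREBP target, changed direction. It had 7082, 6202 and 5963 normalized counts at DMSO 24h and 5519, 5351 and 5725 at AZD5153 24h, with all treated libraries lower. By 48 hours the values were 6798, 7105 and 6583 in DMSO and 8111, 8108 and 8673 in AZD5153, with all treated libraries higher. The log2 fold change was -0.21 at 24 hours (SE 0.06, limma adjusted p = 0.0054; -0.14 without DMSO 24h replicate 1) and 0.28 at 48 hours (SE 0.06, limma adjusted p = 0.0006), and the 48-hour rise was not called at equal totals (0.11) or under quantile normalization (0.05). INSIG2, its relative, changed by 0.12 (95% interval -0.06 to 0.30) and 0.06 (-0.12 to 0.24). Under quantile normalization the 24-hour change of INSIG2 was 0.19 and called higher. STARD4, a carrier of cholesterol between membranes, had 2411, 2303 and 2043 normalized counts at DMSO 24h, 1464, 1409.9 and 1596 at AZD5153 24h, 2424, 2479 and 2438 at DMSO 48h and 2223, 2042 and 2001 at AZD5153 48h. The treated libraries were lower at both times, by less at 48 hours. STARD4 fell by 0.59 on the log2 scale at 24 hours (SE 0.068, limma adjusted p = 1.1e-06) and by 0.23 at 48 hours (SE 0.068, limma adjusted p = 0.0072).

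**Figure D3:**
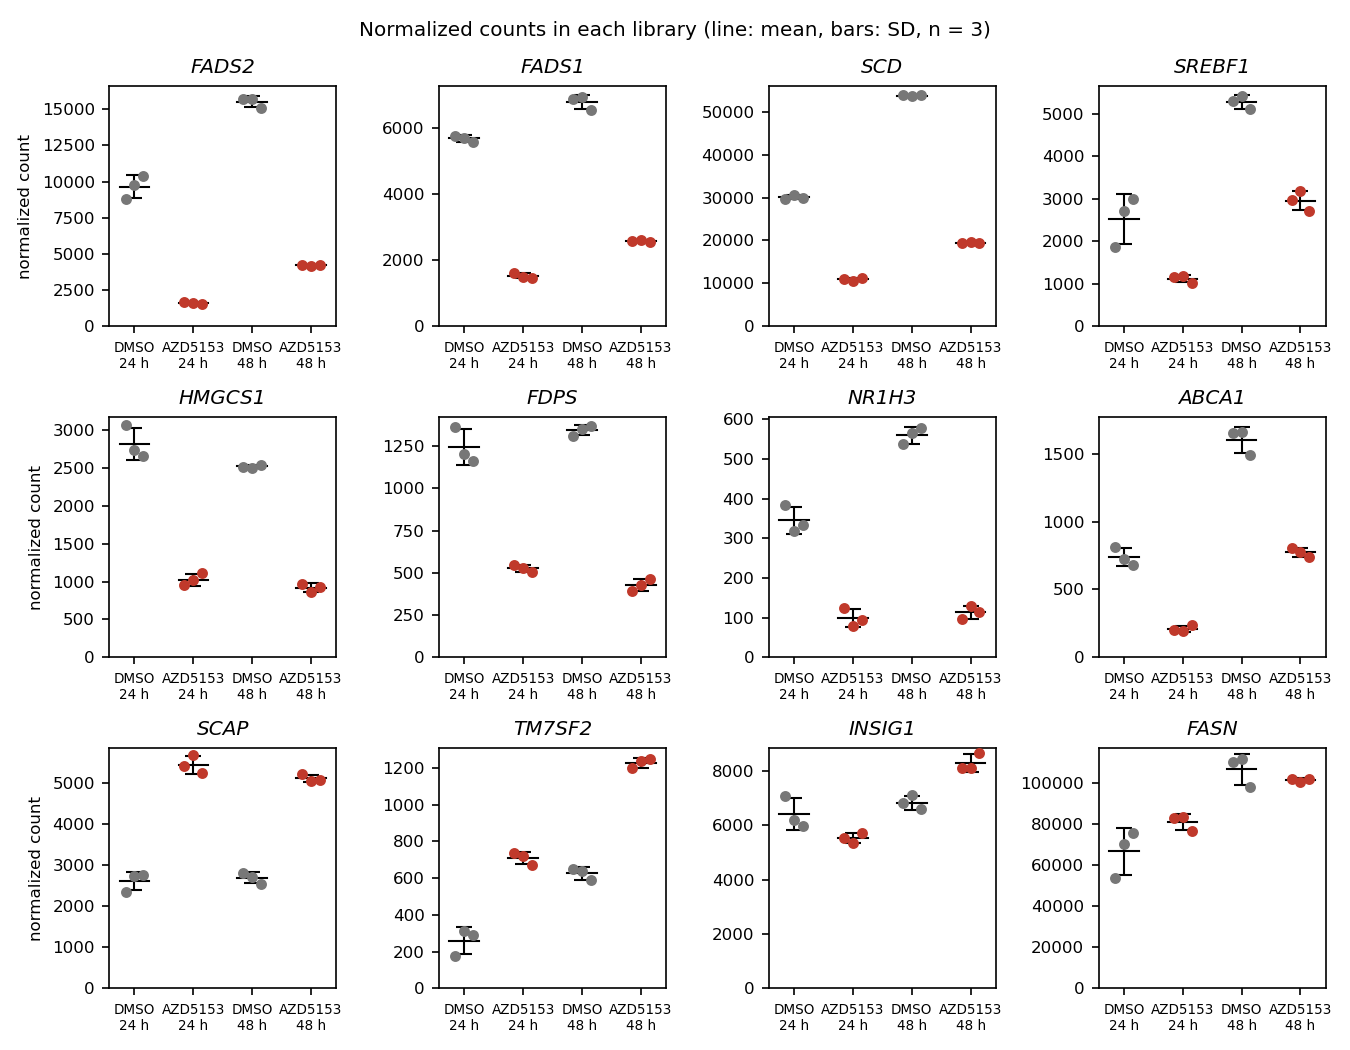
Normalized counts of 12 members in each library (points), by group, with the mean (line) and SD (bars, n = 3); gray is DMSO and red is AZD5153, and each axis starts at 0. The first 8 panels show genes with lower AZD5153 values at both times, SCAP and TM7SF2 run the opposite way, and INSIG1 crosses from lower at 24 hours to higher at 48 hours.

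Of the fatty acid genes, the 3 desaturases fell the most. FADS2, which places a double bond in polyunsaturated fatty acids, had 8812, 9749 and 10381 normalized counts at DMSO 24h and 1714, 1638 and 1561 at AZD5153 24h. The FADS2 values were 15709, 15738 and 15060.3 at DMSO 48h and 4225, 4191 and 4239.6 at AZD5153 48h. Every treated library was below every control library of either time. This was the largest fall among the tested members at 24 hours, 5.88-fold (-2.56, SE 0.056, limma adjusted p = 6.6e-15), and 3.67-fold at 48 hours (-1.88, SE 0.056, limma adjusted p = 1.9e-13).

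FADS1, the neighboring desaturase gene on the opposite strand, had 5759.7, 5701 and 5568 at DMSO 24h and 1612, 1501 and 1470.0 at AZD5153 24h. For 48 hours the FADS1 values were 6860.0, 6926 and 6534 in DMSO and 2591, 2614 and 2561 in AZD5153. FADS1 fell 3.72-fold at 24 hours (-1.89, SE 0.048, limma adjusted p = 2.8e-14) and 2.61-fold at 48 hours (-1.39, SE 0.048, limma adjusted p = 8.1e-13), again with no overlap. The 2 genes share 490 exon bases in the annotation, 4.79% of those of FADS1.

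SCD, the desaturase that makes monounsaturated fatty acids, had 29759, 30696 and 29975 normalized counts at DMSO 24h and 11140.5, 10659 and 11153 at AZD5153 24h. In the 48-hour libraries SCD had 53807, 53666 and 53806 in DMSO and 19364, 19558 and 19479 in AZD5153. SCD rose by 0.83 on the log2 scale between the times in both treatments, and its fall under AZD5153 was 2.74-fold at 24 hours (-1.46, SE 0.036, limma adjusted p = 2.3e-14) and 2.76-fold at 48 hours (-1.47, SE 0.036, limma adjusted p = 2.5e-14). Under quantile normalization the SCD changes were larger, -1.90 and -2.08.

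FASN, fatty acid synthase, had 53762, 70374 and 75688 normalized counts at DMSO 24h, 82841, 83098 and 76372 at AZD5153 24h, 109987, 111490.0 and 97969.8 at DMSO 48h and 101984, 100531 and 101810.0 at AZD5153 48h. DMSO 24h replicate 1 was the lowest of these libraries. FASN rose at 24 hours as deposited (0.29, SE 0.091, limma adjusted p = 0.0099; 0.15 without that library), but the change was 0.17 and not called at equal totals and -0.77 under quantile normalization, so its direction depends on the scaling. For 48 hours the FASN change was -0.07 (95% interval -0.26 to 0.13) and not called as deposited, while it was called at equal totals (-0.24) and under quantile normalization (-0.79). ACACA, acetyl-CoA carboxylase, had 26948, 25756 and 24798 normalized counts at DMSO 24h, 19984, 19014 and 19838 at AZD5153 24h, 27806, 27888 and 29113 at DMSO 48h and 25877, 25610.3 and 27282 at AZD5153 48h. All treated libraries were below the controls of their time. ACACA fell by 0.40 on the log2 scale at 24 hours (SE 0.043, limma adjusted p = 6.9e-07) and by 0.11 at 48 hours (limma adjusted p = 0.04), a call lost under 11 alternatives. Under quantile normalization the ACACA changes were larger, -0.76 at 24 hours and -0.64 at 48 hours. ACLY, which supplies cytosolic acetyl-CoA, had 17243, 17827 and 18142 normalized counts at DMSO 24h, 18007, 17989.6 and 18478 at AZD5153 24h, 16792, 16887 and 17439 at DMSO 48h and 22423, 21952 and 22379 at AZD5153 48h. The groups overlapped at 24 hours, and the treated libraries were higher at 48 hours. ACLY changed by 0.03 at 24 hours, or by -0.09 at equal totals and -0.23 under quantile normalization. At 48 hours ACLY rose by 0.39 (SE 0.037, limma adjusted p = 1.7e-07), a change of 0.05 and not called under quantile normalization.

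Of the 3 tested LXR and efflux genes, NR1H3 and ABCA1 fell and MYLIP rose at both times, beside 27.1% and 26.0% of all tested genes. NR1H3, which encodes an LXR, had 383, 318 and 334 normalized counts at DMSO 24h and 125, 79.9 and 93.0 at AZD5153 24h. At 48 hours NR1H3 had 537, 565 and 578 in DMSO and 95.7, 129 and 115 in AZD5153. NR1H3 rose in DMSO between the times and stayed low in AZD5153. It was 3.50-fold lower at 24 hours (-1.81, SE 0.15, limma adjusted p = 3.5e-08) and 4.94-fold lower at 48 hours (-2.31, SE 0.15, limma adjusted p = 1.9e-09), the largest fall of a member at that time.

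ABCA1, the LXR target that exports cholesterol to apolipoproteins, had 812, 726 and 679 at DMSO 24h and 199.8, 196 and 237 at AZD5153 24h. It had 1649, 1659.6 and 1489 at DMSO 48h and 805, 778 and 736 at AZD5153 48h. ABCA1 rose in both treatments with time, and the treated libraries at 48 hours lay among the DMSO 24h libraries. The fall was 3.50-fold at 24 hours (-1.81, SE 0.09, limma adjusted p = 6.4e-11) and 2.07-fold at 48 hours (-1.05, SE 0.09, limma adjusted p = 4.2e-08).

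MYLIP, a ubiquitin ligase that marks lipoprotein receptors for breakdown and is also an LXR target, moved against ABCA1. MYLIP had 318, 333 and 316 at DMSO 24h, 436, 453 and 465 at AZD5153 24h, 453, 437 and 534 at DMSO 48h and 532, 602 and 628 at AZD5153 48h. The groups were separate at 24 hours and overlapped at 48 hours. The rise was 0.48 (SE 0.093, limma adjusted p = 0.00024) and 0.31 (SE 0.093, limma adjusted p = 0.008), and the later one was 0.14 and not called at equal totals.

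The AZD5153 effect itself was compared between the times with an interaction term, which shares its libraries with the comparisons above. It was called for 13 members, and the effect was more positive at 48 than at 24 hours for 11 of them (33.3%, against 14.4% of all tested genes) and more negative for 2 (6.06%, against 10.1%). Without DMSO 24h replicate 1, the counts were 13 and 4, beside 2724 and 1803 of all tested genes. At equal totals they were 9 and 3, beside 1760 and 1893 of all tested genes, and under quantile normalization 8 and 5, beside 1761 and 1601. In 7 of the 11 the fall at 24 hours was smaller at 48 hours. The largest of these called differences were those of ABCA1 (0.76, SE 0.13, limma adjusted p = 0.00055), ACAT2 (0.71, SE 0.16, limma adjusted p = 0.0041) and FADS2 (0.68, SE 0.079, limma adjusted p = 2.4e-05), followed by FADS1 (0.51, limma adjusted p = 7.9e-05).

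Smaller falls at the later time were also found for STARD4 (difference 0.36, limma adjusted p = 0.012), ACACA (0.29, limma adjusted p = 0.003) and FDFT1 (0.18, limma adjusted p = 0.046). INSIG1 went from a fall to a rise (difference 0.49, limma adjusted p = 0.00061). SC5D (0.40, limma adjusted p = 0.029), ACLY (0.35, limma adjusted p = 0.00022) and IDI1 (0.34, limma adjusted p = 0.0019) had a more positive effect at 48 hours, where each was called higher. The effect became more negative for FDPS (-0.41, SE 0.11, limma adjusted p = 0.014) and PMVK (-0.46, SE 0.16, limma adjusted p = 0.042). Larger differences that missed the threshold were those of CYP51A1 (0.97, SE 0.37, limma adjusted p = 0.069), TM7SF2 (-0.53, limma adjusted p = 0.086) and NR1H3 (-0.50, limma adjusted p = 0.11), which 4, 4 and 2 alternatives called. The calls of FDFT1 and PMVK were lost under 14 and 12 alternatives and that of SC5D under 8. HMGCS1, SCD and HSD17B7 had differences of 0.00, -0.01 and 0.00, with 95% intervals of -0.21 to 0.21, -0.12 to 0.10 and -0.28 to 0.28, but the SCD difference was -0.18 and called under quantile normalization.

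From 24 to 48 hours in DMSO, 13 members rose and 6 fell (39.4% and 18.2%, against 16.4% and 19.3% of all tested genes), and the roles differed in direction. At equal totals 14 members rose and 4 fell, beside 3127 and 2440 of all tested genes, and under quantile normalization 16 and 4, beside 2525 and 2888. Of the 18 sterol synthesis enzymes, 2 rose (LSS and TM7SF2) and 6 fell (ACAT2, FDFT1, SQLE, CYP51A1, MSMO1 and SC5D), although FDFT1 and SQLE were at 0.00 under quantile normalization and lost their calls under 6 and 16 alternatives. EBP was not called, but 4 alternatives called it lower (-0.49 to -0.36), among them edgeR and DESeq2. Another 3 alternatives called DHCR7 higher (0.21 to 0.28), and 1 each called HMGCS1 (-0.20) and NSDHL (-0.33) lower. Of the 6 fatty acid genes, 5 rose and none fell, although the ACACA call (0.13) was lost under 9 alternatives, and NR1H3, ABCA1 and MYLIP all rose. SREBF1 rose by 1.09 on the log2 scale (SE 0.12, limma adjusted p = 1e-05; 0.88 without DMSO 24h replicate 1), and SREBF2 by 0.36. In AZD5153, 16 members rose and 3 fell over the same interval (48.5% and 9.09%, against 15.8% and 13.8%). All 6 fatty acid genes rose there, from ACLY at 0.29 to FADS2 at 1.37, as did 5 of the 6 genes of SREBP control, all but SCAP, although the INSIG2 call (0.25, limma adjusted p = 0.04) was lost under 12 alternatives. SREBF1 rose by 1.41 and ABCA1 by 1.87 (SE 0.09, limma adjusted p = 1.2e-09), and PMVK, FDPS and SQLE fell. In the AZD5153 libraries, time in culture and time of treatment cannot be told apart.

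**Figure D4:**
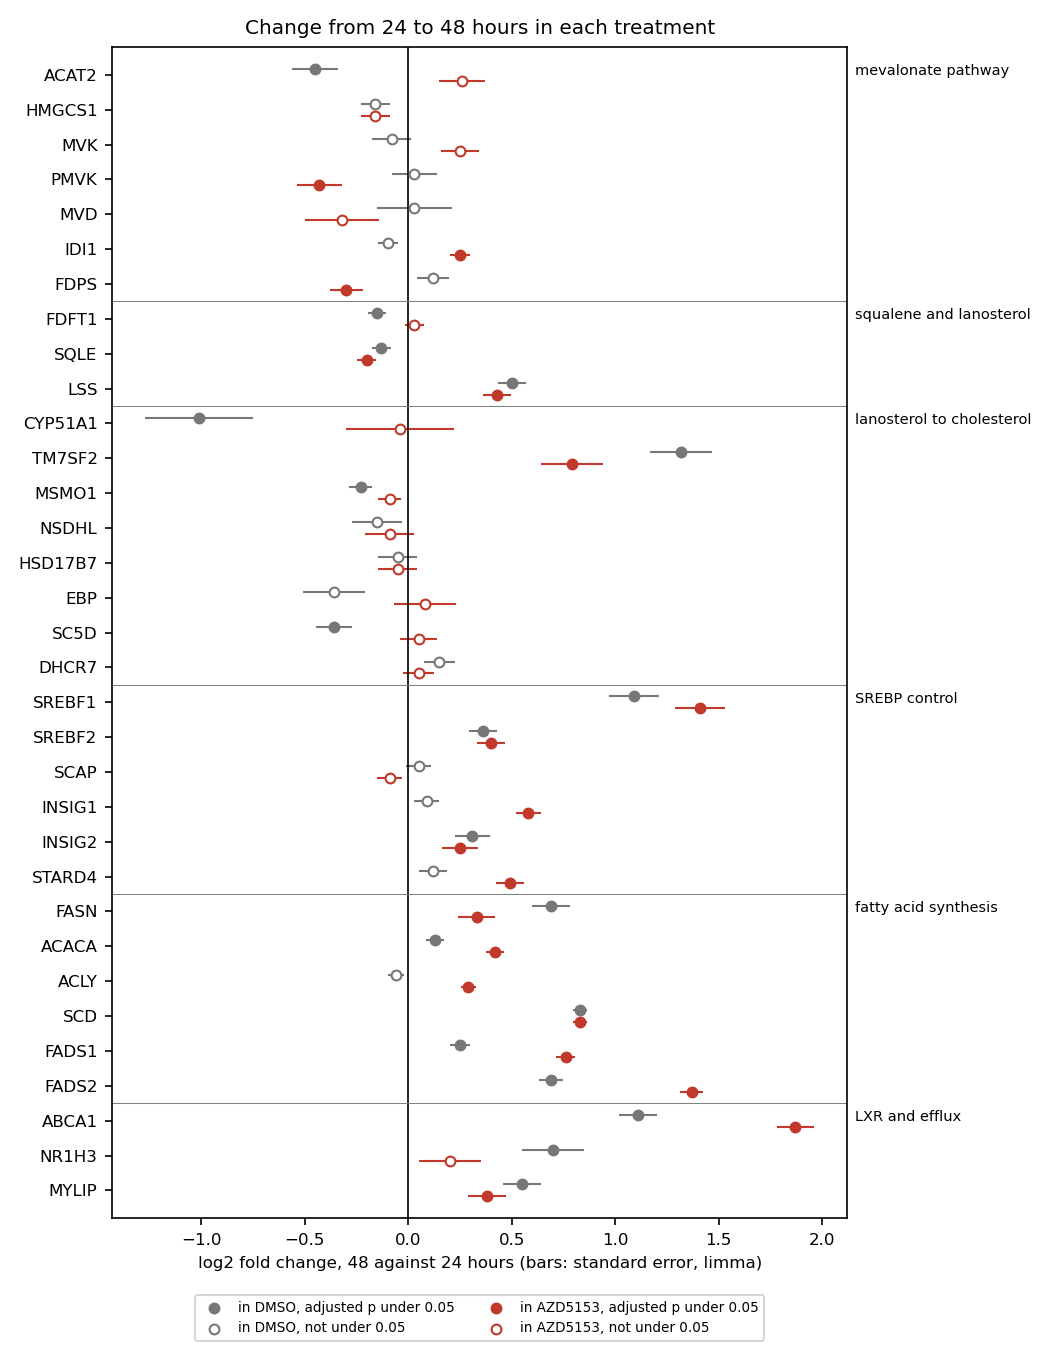
Log2 fold change from 24 to 48 hours for each tested member (rows, by role) in DMSO (gray) and in AZD5153 (red), with limma's standard error as bars and filled points for an adjusted p under 0.05. SREBF1, SCD, FADS2, ABCA1 and TM7SF2 lie to the right in both treatments, and CYP51A1 at -1.01 in DMSO lies farthest to the left.

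Levels of different genes were compared per kilobase of merged exon. At DMSO 24h the highest were FASN with 7146 ± 1227 normalized counts per kilobase (SD, n = 3), SCD with 5747 ± 93.5 and ACLY with 3406 ± 87.6, all fatty acid genes, followed by ACACA with 1984 ± 82.7 and INSIG1 with 1758 ± 161. The ranges of mean ± SD of ACACA and INSIG1 overlapped, and those of the 3 genes above them did not. MSMO1 was the highest of the sterol enzymes at 1384 ± 75.0, followed by FDFT1 at 1234 ± 10.0, an order that reversed per kilobase of the longest transcript (1772 and 2546). At the other end stood TM7SF2 with 75.7 ± 21.6, ABCA1 with 65.1 ± 5.91 and CYP51A1 with 14.9 ± 3.20. At AZD5153 24h ACLY at 3487 ± 53.3 passed SCD at 2094 ± 53.7, SCAP moved from place 17 to place 8 of 33, and FADS2 from place 9 to place 19. With the length of the longest transcript instead, FADS2 went from place 7 to place 17.

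A further 60 genes of these pathways were described from a list of their own, of which 57 were tested. At 24 hours 26 were higher and 19 lower (45.6% and 33.3%), beside 33.9% and 34.6% of all tested genes, so the lower share was near the background. At 48 hours 25 were higher and 9 lower (43.9% and 15.8%), beside 33.1% and 33.9%. Genes that process the SREBPs or turn over their regulators rose in 4 of 6 cases at 24 hours (66.7%, beside 33.9% of all tested genes), namely SPRING1 (0.76), RNF139 (0.56), UBE2G2 (0.52) and MBTPS1 (0.44), the last being the first protease that cuts the SREBPs. RNF145 (-0.98) and MBTPS2 (-0.21), the second protease, fell. At 48 hours the same 4 were higher and RNF145 alone was lower. RXRA, a partner of LXR, fell by 0.81 on the log2 scale at 24 hours and 1.64 at 48 hours. Of the 6 tested LXR partners and targets, 3 were higher and 1 lower at 24 hours (50.0% and 16.7%, beside 33.9% and 34.6% of all tested genes). At 48 hours 2 were higher and 2 lower (33.3% each, beside 33.1% and 33.9%).

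Of these further genes, 3 were past 1 on the log2 scale at both times. TMEM97, an SREBP-responsive binding protein of sterols, had 1065, 942 and 1041 normalized counts at DMSO 24h and 219, 239 and 239 at AZD5153 24h. TMEM97 had 737, 732 and 726 at DMSO 48h and 293, 280.3 and 307 at AZD5153 48h. Its fall was 4.36-fold (-2.13, SE 0.079, limma adjusted p = 2e-12) and 2.49-fold (-1.32, SE 0.079, limma adjusted p = 5.3e-10). ELOVL6, an elongase of saturated and monounsaturated fatty acids, fell by 3.00 and 3.01 times (-1.59 at both, SE 0.057, limma adjusted p = 1.3e-12). POR, which passes electrons to CYP51A1 and SQLE, rose 2.22-fold and 2.07-fold (1.15 and 1.05, SE 0.097, limma adjusted p = 3.3e-08 and 9.5e-08).

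**Figure D5:**
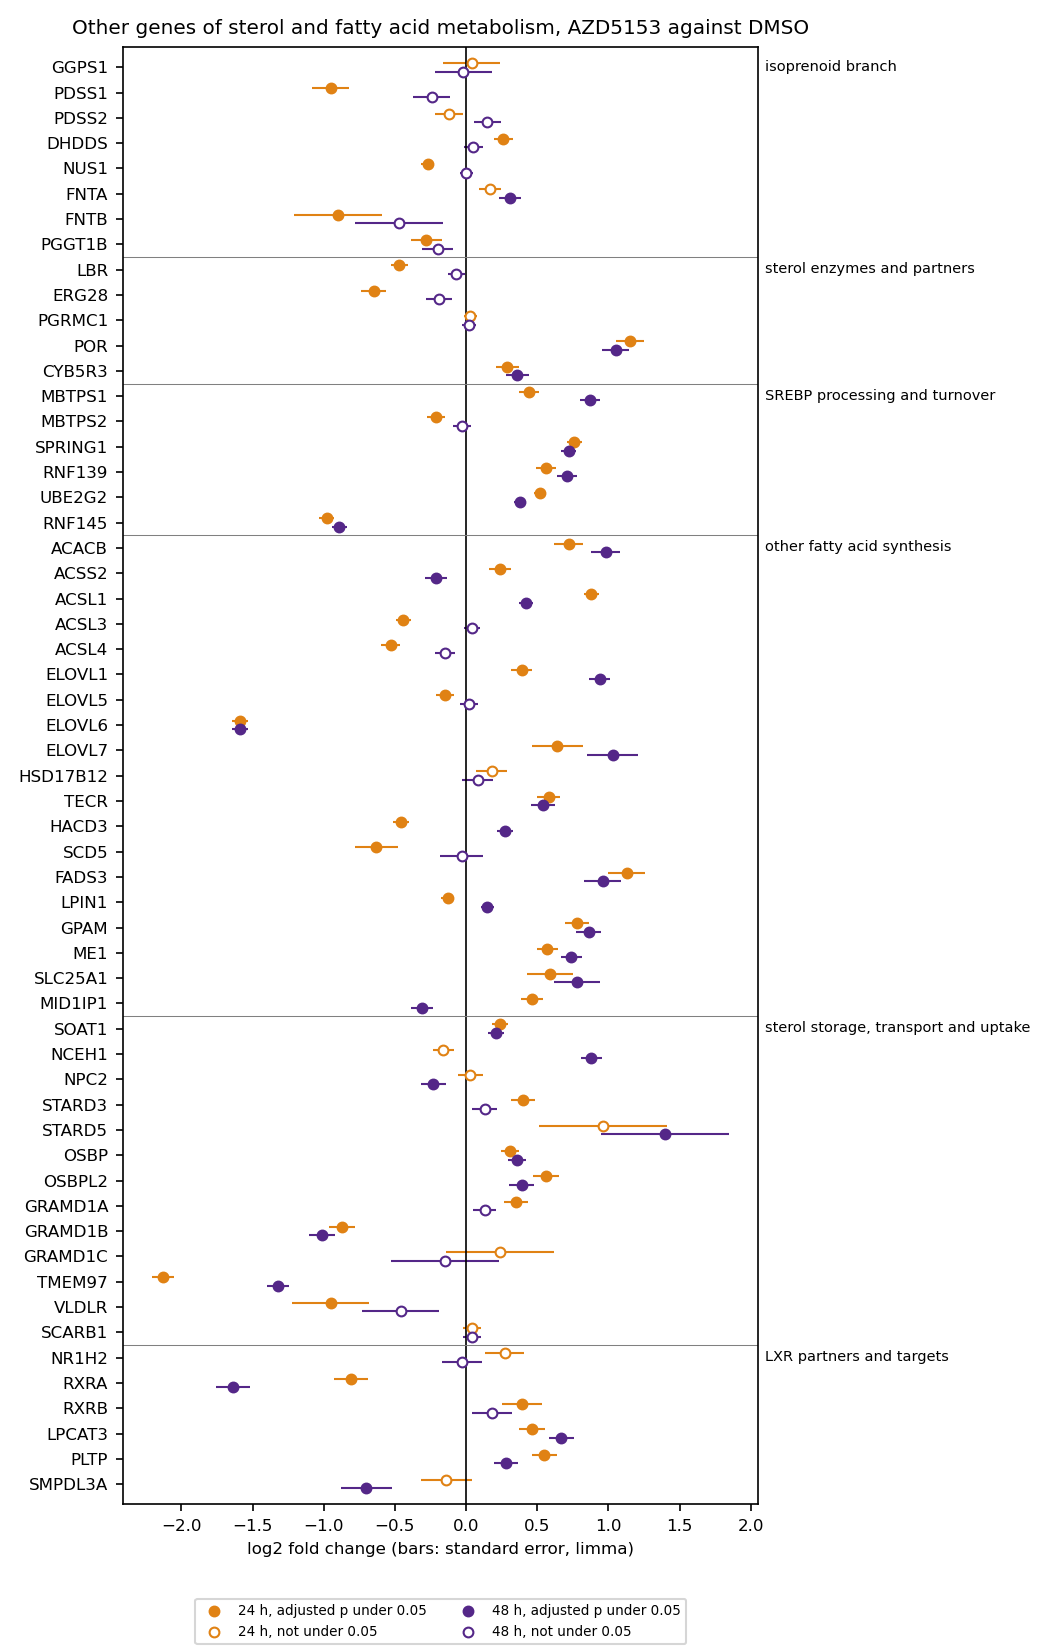
Log2 fold change of AZD5153 against DMSO for the 57 further genes tested (rows, by role) at 24 hours (orange) and 48 hours (purple), with limma's standard error as bars and filled points for an adjusted p under 0.05. TMEM97, ELOVL6 and RXRA lie far to the left, and most genes of SREBP processing and turnover lie to the right.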

How the data were processed

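RNA from SF8628 cells was sequenced by the study as paired-end reads. The authors aligned them with STAR to hg38, counted them per gene with HTSeq and normalized them with DESeq2 defaults, and the deposited signal values are gene counts divided by a size factor per library. Versions, the annotation release and the strand setting are not given in the sources used here. The table also holds the authors' comparison of AZD5153 with DMSO (fold changes, test statistics and p-values), which was not used, and the CUT&RUN samples were not analysed here.

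Whole reads could be recovered for 100% of values (within 0.01 of a whole number), which gave the depth per library. The main test was limma on log2(normalized count + 1), with a mean-variance trend, on 15599 genes that reached a minimum mean of 10, all 4 groups in 1 fit (8 residual degrees of freedom), and Benjamini-Hochberg adjusted p under 0.05. On the recovered reads, edgeR's quasi-likelihood test called 5394 genes higher and 5298 lower at 24 hours and 5127 higher and 5450 lower at 48 hours, against 5287, 5392, 5159 and 5294 with limma. There were 13 alternatives beside leaving out each of the 12 libraries in turn: pseudocounts of 0.5 and 10, minimum means of 0 and 100, equal totals, quantile normalization, scaling on 7 stably expressed genes, a replicate block, no trend, only the groups compared, edgeR, DESeq2, and a log2 fold change of at least 1. The fit used limma 3.58.1 in R 4.3.3, the alternatives used DESeq2 1.42.0 and edgeR 4.0.16, and tables were made in python 3.11.15. The fit was also run on simulated data, with 198 changed genes among 15461. It recovered 78.3% of them at either time, and 7.19% of its calls at 24 hours and 4.91% at 48 hours were false. Far fewer genes changed there than were called here, so the scaling under so wide a change was not tested.

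Gene identifiers were named and measured with GENCODE 44, which holds 60463 of the 60664. A listed pathway gene is not reported here. Members, lists and tests were chosen with earlier results of these data known. Every tested member is named, with full values for the 3 largest increases and decreases over both times and for members with a called interaction, and other pathway genes are named in full where they were called and past 1 on the log2 scale at both times. Further members, and other genes by their log2 fold change, were added after their values were seen. Replicate libraries differed by more than counting error, as the chi-square of their counts was 2.09 to 22.9 times its degrees of freedom, so all were kept as separate samples.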

Additional observations from a re-analysis of the deposited data

Results flagged for a closer look

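The effect of AZD5153 differed between 24 and 48 hours, by the interaction term of limma at an adjusted p under 0.05, for 13 members and for 1 other gene of the pathways described in full. The difference of the log2 fold changes (48 hours minus 24 hours) was 0.76 for ABCA1, 0.71 for ACAT2, 0.68 for FADS2, 0.51 for FADS1, 0.49 for INSIG1, 0.40 for SC5D, 0.36 for STARD4, 0.35 for ACLY, 0.34 for IDI1, 0.29 for ACACA and 0.18 for FDFT1. It was -0.41 for FDPS and -0.46 for PMVK, and 0.81 for TMEM97. Of all tested genes, 14.4% had a more positive and 10.1% a more negative effect at 48 hours. With 3 libraries a group, no formal outlier test was run on single values. DMSO 24h replicate 1 stood apart across genes. Without it the interaction was more positive for 13 members and more negative for 4, beside 2724 and 1803 of all tested genes.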

How the results depend on the processing

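For the members' log2 fold changes, the alternatives other than the fold minimum of 1 (its counts follow) were compared with the main test. Of the values, 130 lost a call, 75 gained one and 9 reversed. The other 4466 kept their side of the threshold. A change of sign counted as reversed only if the value was past the threshold in the main test or under the alternative. The 4466 thus include changes of sign between values past it in neither. At equal totals SQLE at 24 hours was -0.11, ACLY at 24 hours -0.09 and INSIG1 over both times -0.11. The median of all tested genes was itself moved by -0.12 at 24 hours and -0.14 over both times. Less that shift, the values of SQLE, ACLY and INSIG1 were 0.01, 0.03 and 0.03. Under quantile normalization FASN was -0.77 at 24 hours and -0.78 over both times, ACLY was -0.23 at 24 hours and -0.09 over both times, and FDFT1 and SQLE from 24 to 48 hours in DMSO were 0.00. These settings rescale each library, and any further cause was not tested.

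A log2 fold change of at least 1 left 1690 genes higher and 2450 lower at 24 hours, 1379 and 2580 at 48 hours, 1493 and 2506 over both times, 196 and 558 for the interaction, 485 and 95 over time in DMSO and 286 and 287 over time in AZD5153. Among members this left 2 higher and 12 lower at 24 hours, 0 and 8 at 48 hours, 1 and 9 over both times, 0 and 0 for the interaction, 3 and 1 over time in DMSO and 3 and 0 over time in AZD5153. The members higher were 3 at 24 hours and 4 at 48 hours at equal totals, beside 4340 and 3896 of all tested genes. Under quantile normalization 5 were higher at 48 hours, beside 5800. Members with a more negative effect at 48 hours were 2 in the main test, beside 1575 of all tested genes. They were 1 with no minimum mean, with 7 stably expressed genes and without a trend, beside 1286, 1165 and 1336. They were 4 with DESeq2 and 5 under quantile normalization, beside 1721 and 1601. Leaving out single libraries gave 1 to 4, beside 1213 to 1977 (4 without DMSO 24h replicate 1 or replicate 3, beside 1803 and 1977). From 24 to 48 hours in AZD5153, scaling on 7 stably expressed genes left 1372 genes and 1 member lower. Leaving out single libraries left 2 to 5 members lower, beside 1703 to 2856 of all tested genes. The 5 were without DMSO 24h replicate 1 (2856 of all tested genes), which enters only through the shared spread.

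No pairing of the libraries by replicate number was seen. Same-numbered libraries had correlations of their deviations between -0.151 and 0.0363, and libraries of different numbers between -0.109 and 0.154. Such correlations cannot show whether libraries were handled in matched sets. With the number as a replicate block, 6 members were higher and 20 lower at 24 hours, 8 and 16 at 48 hours, and 10 and 1 for the interaction, against 6 and 20, 8 and 17, and 11 and 2 without it. Of all tested genes, the block called 5207 higher and 5319 lower at 24 hours, 5078 and 5212 at 48 hours, and 2012 and 1426 for the interaction. The lowest tested member, CYP51A1, had 26.7 normalized counts in its lowest group, and how far depth limited the calls was not tested. The comparisons rest on 3 libraries a group of 1 cell line, a single dose and mRNA levels alone.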
